A study of Mus musculus with 29 samples.

Results

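The 10 genes described here encode RNA-binding proteins that mark or control the passage from neural progenitor to neuron: Elavl2, Elavl3 and Elavl4, Nova1 and Nova2, Rbfox1, Rbfox2 and Rbfox3, and the pair Ptbp1 and Ptbp2. They were chosen by symbol from the 25239 genes that the series lists, and all 10 were among the 15383 with enough counts to test. Its RNA-seq samples are poly(A) libraries from the brains of E11.5 (mid-gestation) mouse embryos, made to ask which genes change when an enhancer is deleted. Of the 29 samples in all, 8 are RNA-seq libraries, in 4 groups of 2. The other 21 are enhancer-capture Hi-C samples and were not analysed here.

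The groups were wild-type midbrain, midbrain of embryos labelled as knockouts of the enhancer hs654, wild-type forebrain, and forebrain of embryos labelled as hs267-853 knockouts. The labels give no strain, no zygosity and no further treatment, and no group carries a transgene or Cre according to them. Each library came from several embryos pooled by tissue and genotype. Nothing in the labels ties the 2 pools of a group to separate litters, so p-values measure only the spread between these pools, which may be partly technical.

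Neurons carry families of RNA-binding proteins that most other cells lack. Elavl2, Elavl3 and Elavl4 bind U-rich stretches of transcripts and affect their stability and splicing, while Nova and Rbfox proteins bind short motifs beside exons and steer splicing. Ptbp1, the polypyrimidine tract binding protein of progenitors, represses many neuronal exons, among them one in its paralog Ptbp2 that keeps the Ptbp2 transcript productive. As neurons form, the microRNA miR-124 lowers Ptbp1 and Ptbp2 protein rises, a replacement known as the Ptbp switch. Rest, a repressor of neuronal genes, holds down the miR-124 genes in other cells.

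Counts in genes ranged from 9051632 to 18024406 per library. Levels are given as CPM, the count of a gene per 1000000 counts of the library after TMM scaling. Per-gene counts were not divided by transcript length, so levels of different genes are not compared with each other. The tissue labels matched the defining markers: all 7 forebrain markers were higher and all 6 midbrain markers lower in wild-type forebrain, and En2, a midbrain-hindbrain transcription factor, had 0 counts in all 4 forebrain libraries. The first principal component (72.1% of the variance) separated the tissues. On the second (6.33%), replicate 1 of the forebrain knockout stood apart at 33.7, against -18.3 to 1.66 for the other 7 libraries. Fits without it are given beside the knockout comparisons that use it.

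Which of the genes differ between forebrain and midbrain was asked first, in wild-type embryos. All 8 genes of the Elavl, Nova and Rbfox families were lower in forebrain, by 1.30-fold to 3.55-fold, where 15.3% of all genes tested were called lower. For brevity they are called the 8 neuronal genes, although Rbfox2 is also made outside neurons. Ptbp1 was higher in forebrain, by 1.29-fold, where 14.3% of genes were called higher, and Ptbp2 did not pass the test. The median log2 difference of the 8 genes was -0.80, against 0.0012 over all genes tested. Genes were tested by the quasi-likelihood method of edgeR, adjusted after Benjamini-Hochberg over all genes tested, with a threshold of 0.05 and n = 2 pools per group. Either way, 29.6% of genes were called. In bulk tissue, fewer cells of a type and less RNA per cell cannot be told apart.

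Among the Elavl genes, Elavl3, which encodes the early neuronal protein HuC, measured 283 and 271 CPM in wild-type midbrain and 312 and 312 in the midbrain knockout. It measured 198 and 174 CPM in wild-type forebrain and 225 and 153 in the forebrain knockout. All midbrain libraries lay above all forebrain libraries, and the forebrain knockout pair lay farthest apart. The wild-type difference, forebrain minus midbrain, was -0.58 on the log2 scale (SE 0.126), with an adjusted p of 0.00397 by edgeR. It missed the threshold without replicate 2 of wild-type forebrain (log2 difference -0.48, adjusted p = 0.0539).

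Elavl4, which encodes HuD, measured 169 and 172 CPM in wild-type midbrain, 181 and 190.1 in the midbrain knockout, 92.4 and 94.7 in wild-type forebrain, and 105 and 87.0 in the forebrain knockout. Forebrain and midbrain did not overlap, and the wild-type pools lay close together in both tissues. The log2 difference was -0.87 (SE 0.0803), a 1.82-fold higher level in midbrain, with an adjusted p of 3.80e-06 by the same edgeR test. Elavl2, which encodes HuB, measured 150.4 and 139.9 CPM in wild-type midbrain, 132 and 139 in the midbrain knockout, 118 and 105 in wild-type forebrain, and 125 and 99.6 in the forebrain knockout. The tissues still did not overlap, but the gap from 125 to 132 CPM was narrow. The Elavl2 difference was -0.38 (SE 0.0962), a 1.30-fold higher level in midbrain, with an adjusted p of 0.00955 by edgeR. This call was lost without replicate 1 of wild-type midbrain (-0.33, adjusted p = 0.0792) and without replicate 2 of wild-type forebrain (-0.30, adjusted p = 0.105).

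Within the family, the counts of Elavl2 per count of Elavl3 were 0.531 and 0.517 in wild-type midbrain and 0.424 and 0.444 in the midbrain knockout. In forebrain this ratio ran from 0.557 to 0.649. Elavl4 per Elavl3 ran the other way, from 0.579 to 0.635 in midbrain and from 0.467 to 0.567 in forebrain. Neither ratio overlapped between tissues, so Elavl2 fell least and Elavl4 most of the Elavl genes. For Elavl2 per Elavl3, the gap between the midbrain groups was wider than the gap between the tissues. These ratios are within a library and carry no test.

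Nova1 and Nova2 encode KH-domain splicing factors of neurons. Nova1 measured 174 and 144 CPM in wild-type midbrain, 155 and 159.6 in the midbrain knockout, 55.7 and 54.9 in wild-type forebrain, and 61.2 and 56.2 in the forebrain knockout. Every forebrain library lay far below every midbrain library. The log2 difference was -1.52 (SE 0.0885), a 2.87-fold higher level in midbrain, with an adjusted p of 4.92e-08 by edgeR. Nova2 measured 213 and 206 CPM in wild-type midbrain, 239 and 235 in the midbrain knockout, 129 and 123 in wild-type forebrain, and 149 and 119 in the forebrain knockout. Here too the tissues did not overlap, but the step was smaller than for Nova1. The Nova2 difference was -0.74 (SE 0.0860; 1.67-fold; adjusted p = 3.16e-05 by edgeR), and Nova1 per Nova2 count ran from 0.648 to 0.814 in midbrain and from 0.410 to 0.472 in forebrain.

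The Rbfox genes spread widely. Rbfox1, a splicing regulator of maturing neurons, measured 17.2 and 15.0 CPM in wild-type midbrain, 18.5 and 16.4 in the midbrain knockout, 5.02 and 4.02 in wild-type forebrain, and 3.57 and 3.14 in the forebrain knockout. These forebrain levels rest on 48 to 74 counts per library and those in midbrain on 150 to 272, well above the 3 counts taken as the limit of detection (0.170 to 0.328 CPM). Both knockout forebrain pools were below both wild-type forebrain pools. The wild-type tissue difference of Rbfox1 was -1.83 (SE 0.184), a 3.55-fold higher level in midbrain, with an adjusted p of 8.16e-06 by edgeR.

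Rbfox2, the family member also made outside neurons, measured 335 and 326 CPM in wild-type midbrain, 345 and 349 in the midbrain knockout, 261 and 233 in wild-type forebrain, and 261 and 231 in the forebrain knockout. Its tissue difference was small but its pools did not overlap between tissues: the log2 difference was -0.42 (SE 0.0687), 1.34-fold, with an adjusted p of 0.000540 by edgeR. Rbfox3, which encodes the neuronal nuclear antigen NeuN, measured 18.0 and 21.1 CPM in wild-type midbrain, 19.3 and 22.6 in the midbrain knockout, 11.1 and 10.4 in wild-type forebrain, and 13.1 and 8.71 in the forebrain knockout. All forebrain pools were lower than all midbrain pools, with a log2 difference of -0.86 (SE 0.184; 1.81-fold; adjusted p = 0.00359 by edgeR). Rbfox1 per Rbfox2 count ran from 0.0461 to 0.0537 in midbrain and from 0.0136 to 0.0193 in forebrain, and Rbfox3 per Rbfox2 from 0.0539 to 0.0647 against 0.0378 to 0.0503.

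Ptbp1 measured 376 and 407 CPM in wild-type midbrain, 399.9 and 394 in the midbrain knockout, 505 and 505 in wild-type forebrain, and 484 and 534 in the forebrain knockout. Every forebrain library was above every midbrain library, the reverse of the 8 neuronal genes. The log2 difference was 0.37 (SE 0.0603), with an adjusted p of 0.000540 by edgeR. Ptbp2 measured 411 and 370.2 CPM in wild-type midbrain, 373 and 373 in the midbrain knockout, 377 and 391 in wild-type forebrain, and 391 and 371 in the forebrain knockout. The tissues overlapped fully, and the log2 difference was -0.026 (95% interval -0.15 to 0.10, a fold of 0.899 to 1.07; adjusted p = 0.787 by edgeR). The counts of Ptbp2 per count of Ptbp1 were 1.09 and 0.910 in wild-type midbrain, 0.934 and 0.946 in the midbrain knockout, 0.747 and 0.774 in wild-type forebrain, and 0.807 and 0.695 in the forebrain knockout. The ratio was thus lower in every forebrain library than in every midbrain library. The wild-type log2 difference of -0.39 moved to -0.26 without replicate 1 of wild-type midbrain and to -0.52 without replicate 2. Gene counts do not separate Ptbp2 transcripts that include the repressed exon from those that skip it.

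**Figure D1:**
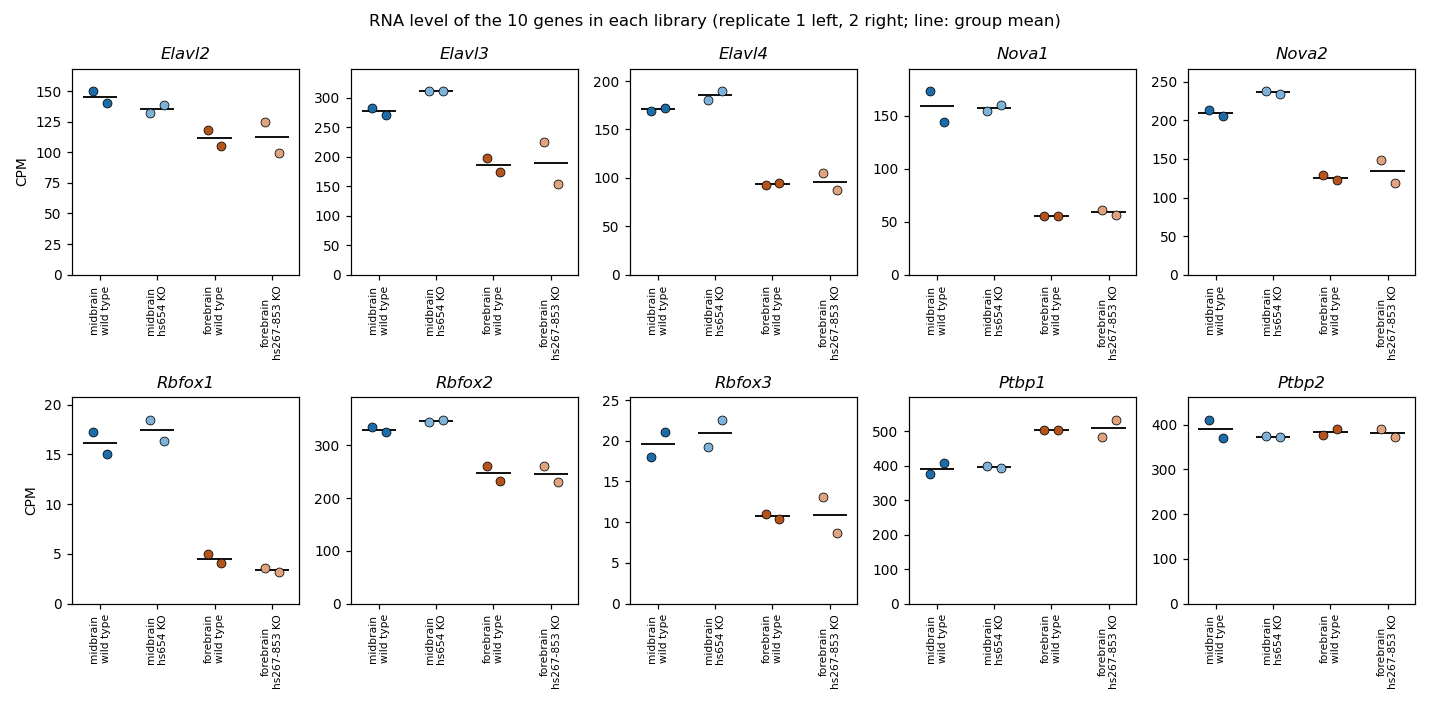
Level of each gene (CPM, vertical axes from 0, each panel with its own scale) in the 8 libraries by group, with replicate 1 left and replicate 2 right and a line at the group mean. The Elavl, Nova and Rbfox genes are lower in all 4 forebrain libraries, Ptbp1 is higher there, and Ptbp2 lies between 370.2 and 411 CPM throughout.

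Ordered by size, the 95% intervals of Rbfox1 (-2.22 to -1.43) and Nova1 (-1.71 to -1.33) overlapped each other and lay below those of the other 6 neuronal genes. Elavl4, Rbfox3 and Nova2 followed at -0.87 to -0.74, with overlapping intervals, and then Elavl3, Rbfox2 and Elavl2 at -0.58 to -0.38, also overlapping. The intervals of Rbfox3 (-1.26 to -0.46) and Nova2 (-0.92 to -0.55) overlapped those of Elavl3, Rbfox2 and Elavl2 too, so these 6 genes do not fall into separate steps. Differences between genes were not tested. All 4 midbrain libraries exceeded all 4 forebrain libraries for 20.3% of genes tested and for 8 of the 8 neuronal genes. The reverse held for 20.6% of genes and for Ptbp1.

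On GRCm38.p6, in RefSeq, the Elavl genes lie at chr4:91211533-91400108 (Elavl2), chr9:22015005-22052146 (Elavl3) and chr4:110203737-110351939 (Elavl4). Nova1 is at chr12:46697895-46819480 and Nova2 at chr7:18925888-18965319. The Rbfox genes lie at chr16:5884793-7412480 (Rbfox1), chr15:77078990-77308434 (Rbfox2) and chr11:118489760-118911597 (Rbfox3). Ptbp1 is at chr10:79854432-79864435 and Ptbp2 at chr3:119718741-119784647. Elavl2, Rbfox1 and Rbfox2 each overlap 1 other listed gene. Ptbp1 overlaps 3: E130317F20Rik, Mir6910 and Plppr3, a neuronal phospholipid phosphatase-related gene. Plppr3 ranged from 165 to 235 CPM and was lower in wild-type forebrain (log2 difference -0.38, adjusted p = 0.000248 by edgeR), opposite in direction to Ptbp1. Strand use in counting is not given in the sources used here, so reads from overlapping genes cannot be told apart.

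RefSeq promoter windows, from 250 bases before to 50 after a transcript start on GRCm38.p6, were found for 9 of the 10 genes (18 windows), with Rbfox2 unmatched. They were searched on both strands for CAGCTG and CAGATG, the E-box forms that proneural bHLH factors bind, and for TTCAGCACC, the left part of the RE1 element that Rest binds. CAGCTG is its own reverse complement, and none of these motifs holds another. CAGCTG was present for 6 of the 9 genes (Elavl2, Elavl3, Elavl4, Nova1, Ptbp1 and Rbfox1), against 18.3% of the 27025 genes in the table, and in 9 of 18 windows against 16.3% of 32851. CAGATG was present for 2 of the 9, Elavl4 and Ptbp1, against 19.2% of genes. TTCAGCACC was present for 0 of the 9, against 0.433%. Genes with several windows, some of them overlapping, had more chances of a match, and a match is a description of the letters only. The windows below let the letters be compared between 2 genes that were lower in forebrain, 1 that was higher and 1 that did not pass the test. They are Elavl3 (chr9:22051974-22052273, minus strand), Elavl4 (chr4:110287478-110287777, minus strand, 1 of its 4 windows), Ptbp1 (chr10:79854182-79854481, plus strand) and Ptbp2 (chr3:119783339-119783638, minus strand). Capitals mark the E-box letters, 43 bases before the start in Elavl3, 46 and 39 before it in Elavl4, and 55 before and 39 after it in Ptbp1.
Elavl3: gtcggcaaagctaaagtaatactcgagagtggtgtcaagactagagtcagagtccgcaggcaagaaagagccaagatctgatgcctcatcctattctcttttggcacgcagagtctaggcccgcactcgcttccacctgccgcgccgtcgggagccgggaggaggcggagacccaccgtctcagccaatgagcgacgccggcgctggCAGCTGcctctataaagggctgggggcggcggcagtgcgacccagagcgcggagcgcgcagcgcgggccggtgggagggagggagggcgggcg
Elavl4: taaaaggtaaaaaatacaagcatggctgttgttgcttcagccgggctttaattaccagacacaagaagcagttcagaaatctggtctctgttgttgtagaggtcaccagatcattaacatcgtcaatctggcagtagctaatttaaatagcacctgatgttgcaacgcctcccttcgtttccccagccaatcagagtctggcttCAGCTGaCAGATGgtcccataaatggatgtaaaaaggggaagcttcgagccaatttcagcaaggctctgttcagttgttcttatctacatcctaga
Ptbp1: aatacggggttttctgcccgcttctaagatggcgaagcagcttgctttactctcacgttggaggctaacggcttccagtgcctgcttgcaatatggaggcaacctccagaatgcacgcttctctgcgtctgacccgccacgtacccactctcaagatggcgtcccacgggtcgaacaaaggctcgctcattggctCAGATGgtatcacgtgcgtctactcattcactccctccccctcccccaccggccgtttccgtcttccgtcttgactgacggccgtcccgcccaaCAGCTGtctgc
Ptbp2: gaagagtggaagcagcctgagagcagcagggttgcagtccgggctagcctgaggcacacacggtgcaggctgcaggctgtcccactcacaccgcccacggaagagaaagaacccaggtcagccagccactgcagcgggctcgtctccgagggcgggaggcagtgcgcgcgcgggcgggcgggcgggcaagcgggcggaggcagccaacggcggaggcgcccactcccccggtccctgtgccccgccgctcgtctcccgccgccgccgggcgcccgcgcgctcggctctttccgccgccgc
The E-box letters thus occur in windows of genes that differed in opposite directions between the tissues, and in none of the letters of the Ptbp2 window.

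The comparison of forebrain with midbrain among the knockouts shares no library with the wild-type comparison, but here the deletion differs along with the tissue, and the 2 cannot be told apart. Of the 8 neuronal genes, 7 were lower in forebrain, where 14.8% of genes tested were called lower, and Ptbp1 was higher, where 14.6% were (29.4% either way). Rbfox1 differed by -2.37 (SE 0.189; 5.18-fold; adjusted p = 9.61e-07 by edgeR) and Nova1 by -1.42 (SE 0.0881; adjusted p = 8.99e-08 by edgeR). The other genes called lower lay between -0.95 (Elavl4) and -0.50 (Rbfox2). Without replicate 1 of the forebrain knockout all 7 were still called, from -2.47 (Rbfox1) to -0.59 (Rbfox2). Elavl2, at -0.27, missed the threshold (adjusted p = 0.0563 by edgeR), but it passed under 8 of 13 alternatives. These were the fit without that pool (-0.44, adjusted p = 0.00105) and 7 with all libraries kept, among them DESeq2 (-0.28, adjusted p = 0.0430). Ptbp1 differed by 0.36 (adjusted p = 0.000632 by edgeR; 0.43 without that pool) and Ptbp2 by 0.030 (95% interval -0.099 to 0.16; -0.0056 without it).

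**Figure D2:**
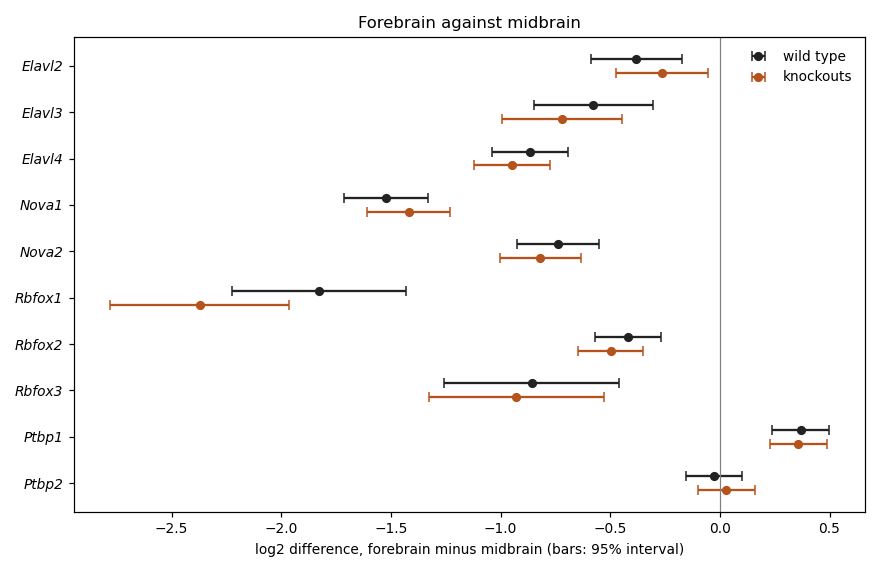
Log2 difference, forebrain minus midbrain, for each gene in wild type (black) and among the knockouts (orange), with 95% intervals from the edgeR fit. The 8 neuronal genes lie left of 0, from -0.38 to -1.83 in wild type, Ptbp1 lies right of it, and both Ptbp2 intervals include 0.

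Markers of neurons moved with these genes. Of 10 neuron markers, 10 were lower in wild-type forebrain, with a median log2 difference of -1.52, and 10 were lower among the knockouts (median -1.55, or -1.89 without replicate 1 of the forebrain knockout). They included the neurofilament genes Nefl (-4.00) and Nefm (-3.10), the synaptic gene Snap25 (-1.99) and the growth cone gene Gap43 (-1.81). Their summed level ran from 3483 to 3927 CPM in midbrain and from 1341 to 1923 in forebrain. Their part in the differences of the 8 genes was not tested, and the ratios that follow are a description. Tubb3, a tubulin of newborn neurons, was 1.71-fold higher in wild-type midbrain.

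Per 100 counts of Tubb3 in the same library, Elavl4 ran from 16.6 to 18.0 in midbrain and from 14.8 to 17.9 in forebrain, Nova2 from 20.9 to 22.4 and 20.6 to 24.5, and Rbfox3 from 1.77 to 2.21 and 1.77 to 1.97. For these 3 genes the tissues overlapped on this scale. Nova1 remained lower in forebrain, at 8.72 to 11.55 against 14.4 to 17.0, and so did Rbfox1, at 0.509 to 0.806 against 1.48 to 1.73. Elavl2 turned: per 100 Tubb3 counts it was higher in forebrain, at 17.8 to 20.5 against 12.4 to 14.7. Elavl3 (31.5 to 32.7 against 27.8 to 29.2) and Rbfox2 (37.1 to 47.4 against 31.6 to 34.1) turned as well. Ptbp1 ran from 69.0 to 109.7 in forebrain against 35.7 to 42.6 in midbrain, and Ptbp2 from 55.7 to 76.3 against 33.7 to 40.3. The denominator was itself lower in forebrain, so a gene with equal CPM in both tissues is higher there on this scale. Ptbp2, which did not pass the wild-type tissue test, was among those higher. The share of all genes that turn or overlap on this scale was not computed. These values are relative amounts and carry no test.

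**Figure D3:**
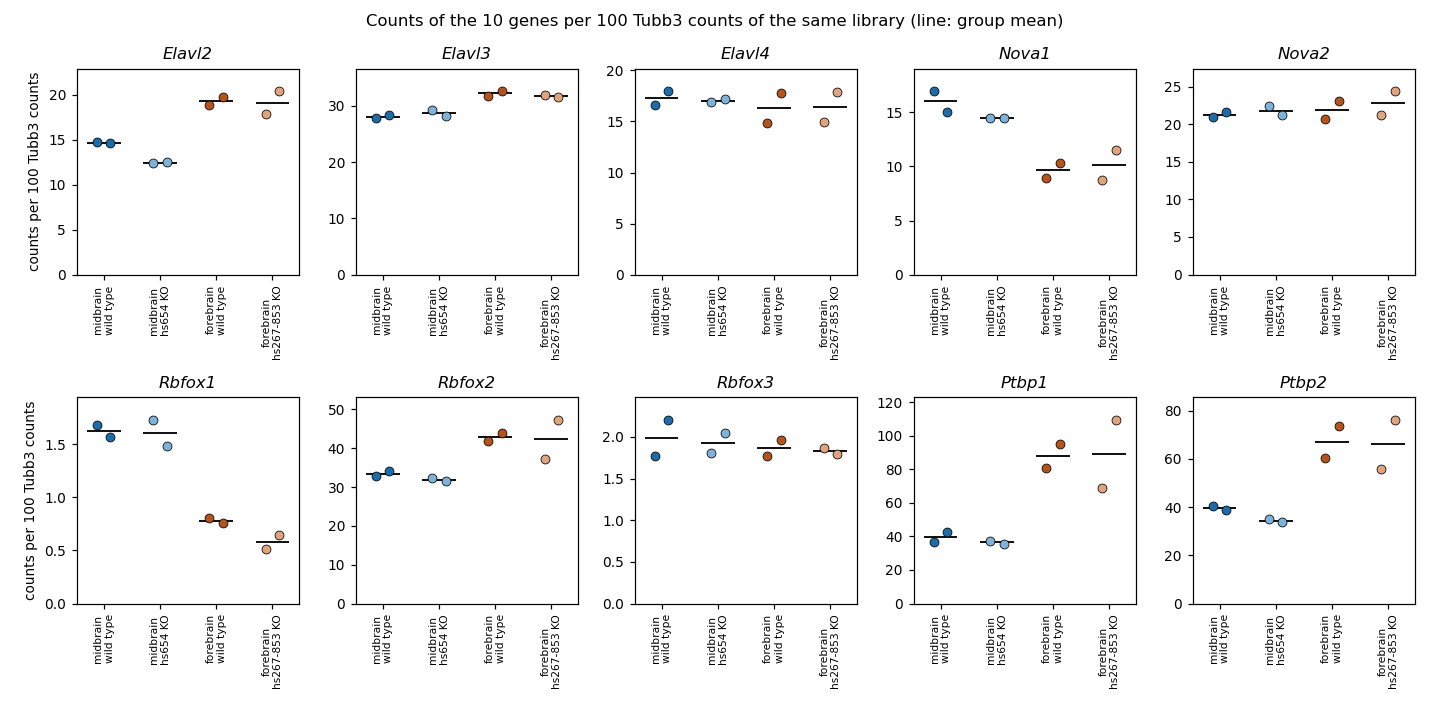
Counts of each gene per 100 counts of Tubb3 in the same library (vertical axes from 0), by group, with a line at the group mean. Nova1 and Rbfox1 stay lower in forebrain, Elavl4, Nova2 and Rbfox3 overlap between the tissues, and Elavl2, Elavl3, Rbfox2, Ptbp1 and Ptbp2 are higher in forebrain on this scale.

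Relative to the mean log2 level of the 10 neuron markers, the differences of the neuronal genes other than Rbfox1 turned towards forebrain, and that of Ptbp1, already towards forebrain, widened. In wild type, forebrain minus midbrain was 0.27 for Nova1, 0.92 for Elavl4 and 2.15 for Ptbp1 on that scale, against -0.024 for Rbfox1. Among the knockouts it was 0.38 for Nova1, 0.84 for Elavl4 and 2.15 for Ptbp1, against -0.53 for Rbfox1. The 10 markers themselves differed by -4.00 (Nefl) to -0.77 (Tubb3) in wild type. Relative to Tubb3 alone, the wild-type difference was -0.73 for Nova1, -0.088 for Elavl4, -1.03 for Rbfox1 and 1.15 for Ptbp1. Signs, that of Nova1 among them, thus depended on the markers used. The marker mean was itself lower in forebrain, at 5.84 to 6.39 against 7.77 to 7.93 in midbrain. Subtracting it therefore moves every gene towards forebrain. Ptbp2, which did not pass the wild-type tissue test, stood at 1.76 on that scale in wild type. The share of all genes that turn on it was not computed, and these values carry no test. Subtracting the marker mean did not narrow the spread within groups in general. The pooled standard deviation of log2 levels fell from 0.206 to 0.0261 for Elavl3, from 0.137 to 0.0854 for Elavl2, from 0.119 to 0.105 for Nova2 and from 0.237 to 0.135 for Rbfox3. It rose from 0.0996 to 0.145 for Elavl4, from 0.107 to 0.186 for Nova1, from 0.156 to 0.160 for Rbfox1 and from 0.0858 to 0.136 for Rbfox2. In the forebrain knockout, replicate 1 had a marker mean of 6.39 and replicate 2 of 5.84, and all 8 neuronal genes were higher in replicate 1, while Ptbp1 was lower in it.

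Markers of progenitors did not move one way. Of 10, 2 were higher in wild-type forebrain, 4 lower and 4 did not pass the test, with a median of -0.066. The Notch target Hes1 (1.28) and the stem cell factor Sox2 (0.57) were higher, while Fabp7 (-1.02), Hes5 (-0.97), Nes (-0.62) and Ccnd1 (-0.35) were lower. Markers of other cells also differed between the tissues. Peripheral sensory neuron markers (5 genes) summed to 8.41 to 12.5 CPM in midbrain and 0.814 to 2.16 in forebrain. Of 3 tested, 2 were lower (Prph and Isl2) and Avil did not pass (-1.51, adjusted p = 0.0765 by edgeR). Tlx2 had 0 counts in every midbrain library and 0 to 3 in forebrain, and Scn10a 0 or 1 and 0 to 6, too few to test. The midbrain sum thus rests almost wholly on Prph, Isl2 and Avil, and the cells that made them were not identified. Neural crest glia markers summed to 21.8 to 24.9 CPM in midbrain and 8.0 to 13.6 in forebrain, with 1 of 3 tested higher and 1 lower. Macrophage markers summed to 50.5 to 60.5 and 26.2 to 35.6 CPM, with 4 of 6 lower. Of 8 mesenchymal markers 3 were higher and 1 lower (1379 to 1909 and 1207 to 2149 CPM), of 6 endothelial markers 1 was higher (204 to 259 and 261 to 269 CPM), and of 9 erythroid markers 0 passed the test (3364 to 6779 and 4140 to 4837 CPM; 3 at an unadjusted p under 0.05 by edgeR). Their part in the tissue differences of the 10 genes was not tested.

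The genes around the Ptbp switch were listed as the miR-124 and Rest circuit. Of 13 names, 10 were in the files and 8 could be tested. In wild-type forebrain 5 were higher, 3 lower and 0 failed to pass, where 29.6% of all genes tested were called either way. The 3 lower genes were the miR-124 host transcripts Mir124a-1hg and Mir124-2hg and the hairpin gene Mir124a-2. The other hairpin genes, Mir124a-1 and Mir124a-3, had 0 to 5 counts per library, too few to test. Mir124a-1hg measured 112 to 132 CPM in midbrain and 36.2 to 41.9 in forebrain (log2 difference -1.57), Mir124-2hg fell by 1.08 on that scale, and Mir124a-2 fell by 1.43. Mir124a-2 lies within Mir124-2hg, so their reads cannot be told apart, and poly(A) libraries do not measure the mature microRNA. The 5 higher genes were Rest (0.42), its corepressor Rcor1 (0.25) and the phosphatase genes Ctdsp1 (0.46), Ctdsp2 (0.44) and Ctdspl (0.68), whose products are recruited with Rest. Rest measured 36.4 to 41.2 CPM in midbrain and 45.1 to 52.6 in forebrain, with no overlap. Among the knockouts 4 were higher, 3 lower and 1, Rest, missed the threshold (0.26, adjusted p = 0.0708 by edgeR); without replicate 1 of the forebrain knockout 5 were higher and 3 lower. Rest, Rcor1, Ctdsp1 and Ctdsp2 fall outside the naming rule and were named with their values known.

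Genes with exons under Ptbp control were listed too, although gene counts do not show exon inclusion. Of 7, 2 were higher in wild-type forebrain, 4 were lower and Src did not pass (median -0.18). Grin1, an NMDA receptor subunit gene, differed by -2.28, Gabbr1, a GABA-B receptor gene, by -0.80, and Dlg4, which encodes the synaptic scaffold PSD-95, by -0.28. Shtn1, the gene of the axon protein shootin, differed by 1.09 in the other direction. Among the knockouts 2 were higher, 3 lower and 2 did not pass, and without replicate 1 of the forebrain knockout 2 were higher, 4 lower and 1 did not pass.

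Splicing regulators outside the 10 showed no common direction as a list, but Srrm3, Srrm4 and Celf3 to Celf6 were all lower in wild-type forebrain. Of 21, 5 were higher in wild-type forebrain, 8 lower and 8 did not pass, with a median of -0.0040. Srrm3, a neuronal microexon regulator, measured 40.9 to 52.0 CPM in midbrain and 8.12 to 12.0 in forebrain, with no overlap (log2 difference -2.08, SE 0.15, adjusted p = 3.54e-07 by edgeR). Celf6 (-1.41) and Celf4 (-1.32), of the CELF family of splicing and stability factors, were also lower, and Mbnl3 (0.81), a muscleblind family gene, was higher. The other lower genes were Srrm4 (-0.79), Celf3 (-0.74), Celf5 (-0.55), Msi1 (-0.44) and Msi2 (-0.30). The other higher genes were Khdrbs3 (0.64), Mbnl1 (0.50), Raver1 (0.30) and Celf2 (0.26). The broadly expressed paralogs of the described genes, Elavl1 (-0.0040) and Ptbp3 (0.13), did not pass the test. The genes of this list other than Srrm3, Celf6, Celf4 and Mbnl3 fall outside the naming rule and were named with their values known. Among the knockouts 3 of the 21 were higher, 7 lower and 11 did not pass (3, 8 and 10 without replicate 1 of the forebrain knockout).

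**Figure D4:**
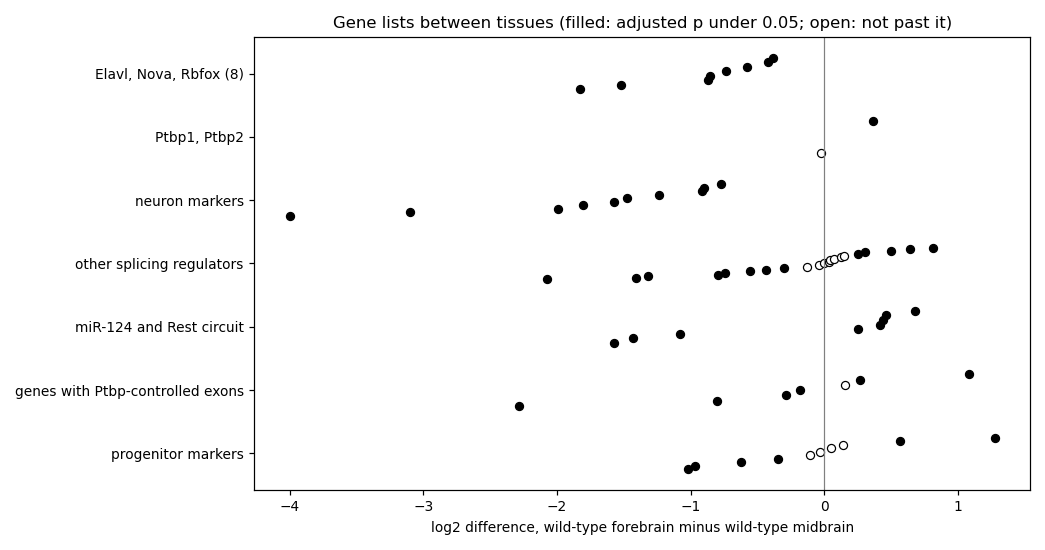
Log2 difference, wild-type forebrain minus wild-type midbrain, of each tested gene of 7 lists (1 point per gene, filled where the adjusted p was under 0.05). The 8 Elavl, Nova and Rbfox genes and the 10 neuron markers lie left of 0, while the progenitor markers and the other splicing regulators lie on both sides.

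For the 6 members that differed by at least 0.5 on the log2 scale and were lower in forebrain, the 3 genes with the most similar profile over the 8 libraries were found among 11886 genes. Likeness was the root mean square difference of log2 CPM after each profile was centred on its own mean. Elavl3 was closest to Crmp1 (0.0390), Tub (0.0415) and Apc2 (0.0488), and Elavl4 to Trp53i11 (0.0369), Mycl (0.0447) and Nt5c2 (0.0460). Nova2 was closest to Gprin1 (0.0265), Srrm4 (0.0395) and Phf21b (0.0405), and Nova1 to Scn3a (0.0630), Trim2 (0.0687) and Rnd3 (0.0768). Rbfox3 was closest to Spsb4 (0.0805), Slitrk1 (0.0808) and Rusc1 (0.0870), and Rbfox1 to Asic1 (0.125), Ryr3 (0.128) and Tal1 (0.144). The nearest profile of Rbfox1 was thus farther away than the third nearest of the other 5. Rbfox1 had only 48 to 74 counts per forebrain library, and a standard deviation within groups of 0.156 on the log2 scale. Its distances are of about that size, and the part of counting error in them was not tested. These distances are a description over 8 libraries that share 2 tissues.

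Deletion of hs654 was compared with wild type in midbrain. None of the 10 genes passed the test or had an unadjusted p under 0.05 by edgeR, where 0% of all genes tested were called (0 of 15383 by edgeR, 609 or 3.96% at an unadjusted p under 0.05, 0 by DESeq2 and 0 by limma-voom). Log2 differences, knockout minus wild type, ran from -0.10 for Elavl2 to 0.18 for Nova2 (SE 0.0848; 95% interval -0.0082 to 0.36), and no adjusted p was below 0.992 by edgeR. The 95% intervals bounded Ptbp1 between -0.11 and 0.15 and Ptbp2 between -0.20 and 0.062. The knockout and wild-type pools did not overlap for 5 of the 10 genes (Elavl2 below, and Elavl3, Elavl4, Nova2 and Rbfox2 above), against 36.7% of all genes tested. The 10 neuron markers were above 0 in this comparison, with a median of 0.11, and 0 of them passed the test by edgeR (0 at an unadjusted p under 0.05). All 8 mesenchymal and all 6 endothelial markers were above 0 as well (medians 0.14 and 0.15). The 9 erythroid markers were all below 0, with a median of -0.46 and 4 at an unadjusted p under 0.05 by edgeR. Their summed level was 3610 to 6779 CPM in wild type and 3364 to 3821 in the knockout. Without replicate 1 of wild-type midbrain, where the embryonic globin gene Hbb-y stood at 3644 CPM against 1786 to 1951 in the other midbrain libraries, the erythroid median was 0.0066, the mesenchymal -0.088 and the endothelial 0.023. The neuron marker median was then 0.15. The part of these cells in the members' values was not tested.

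Deletion of hs267-853 was compared with wild type in forebrain. Again none of the 10 passed by edgeR (0 at an unadjusted p under 0.05), where 0.0130% of genes were called (2 by edgeR, 736 or 4.78% at an unadjusted p under 0.05). Rbfox1 differed by -0.43 (SE 0.210; 95% interval -0.89 to 0.025; adjusted p = 0.984 by edgeR), and its values without 1 library at a time ran from -0.57 to -0.26. The other 9 lay between -0.012 for Ptbp2 and 0.094 for Nova2. The intervals of Ptbp1 (-0.12 to 0.14) and Ptbp2 (-0.14 to 0.12) were among the narrower ones, and that of Rbfox3 (-0.38 to 0.44) was wide. The knockout and wild-type pools did not overlap for Nova1, higher in the knockout, and Rbfox1, lower, against 31.1% of genes.

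The 2 forebrain knockout pools pulled several of these values in opposite directions. The 10 neuron markers had a median of 0.053 in this comparison, with 8 above 0 and 2 at an unadjusted p under 0.05 by edgeR. Without replicate 1 the median was -0.24, with 2 above 0 and 6 at such a p. The 8 mesenchymal markers were all below 0 with both pools (median -0.35, 2 at an unadjusted p under 0.05) and had a median of -0.049 without replicate 1. Their part in the members' values was not tested. Elavl3 differed from wild type by 0.026 with both, by -0.28 without replicate 1 and by 0.27 without replicate 2, and none of these passed the adjusted threshold. Without replicate 1, all of the 8 neuronal genes except Nova1 lay below 0, Nova1 was at 0.023 and Ptbp1 was at 0.081. Over the 13 alternatives of this comparison, Elavl3 ran from -0.28 to 0.27 and Nova2 from -0.079 to 0.25, and none called any of the 10 genes. The hs654 effect minus the hs267-853 effect was tested as well, where 0.00650% of genes were called (1 by edgeR, 619 or 4.02% at an unadjusted p under 0.05). None of the 10 genes passed: Rbfox1 gave 0.54 (SE 0.267; adjusted p = 0.996 by edgeR), and the others lay between -0.11 and 0.14. Without replicate 1 of the forebrain knockout, Rbfox1 gave 0.64, Elavl3 0.45 and Rbfox3 0.40, the other 7 lay between -0.060 and 0.25, and the lowest adjusted p was 0.240 by edgeR.

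**Figure D5:**
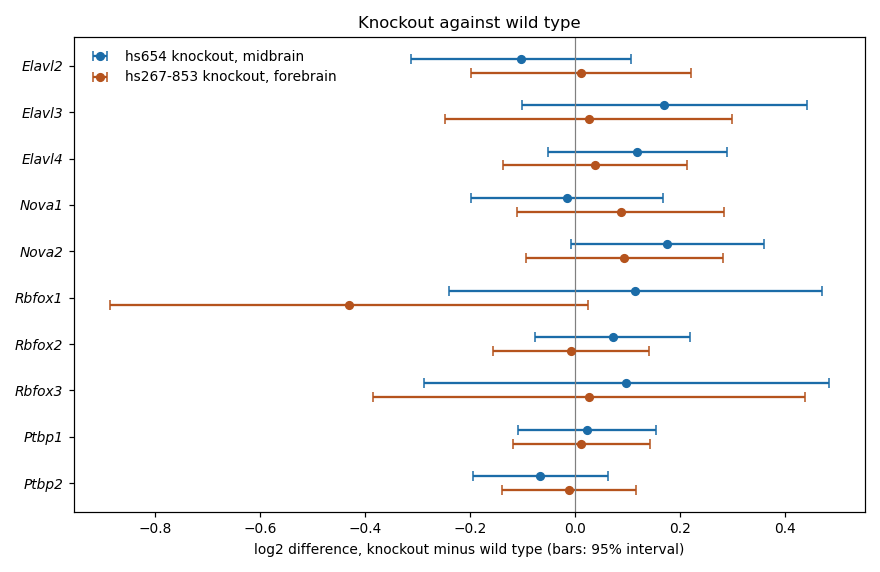
Log2 difference, knockout minus wild type, for each gene in the hs654 midbrain knockout (blue) and the hs267-853 forebrain knockout (orange), with 95% intervals from the edgeR fit. The 95% interval of every gene includes 0 in both comparisons, and Rbfox1 in forebrain lies farthest from it at -0.43.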

How the data were processed

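Poly(A) RNA of midbrain and forebrain pools was analysed in 8 libraries, in 4 groups of 2 given by the sample titles (tissue and genotype). The authors deposited a table of raw, unnormalized counts for each library, with 1 row per gene symbol. The submitters' processing notes name STAR, HTSeq, DESeq2 and mm10, with no role or version. The annotation and strand setting are not given in the sources used here. The 5 rows of each table that name no gene were left out of library sizes and tests. Genes took 40.7% to 44.1% of the counts in genes, no feature and ambiguous positions.

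After a filter on low counts (filterByExpr) and TMM scaling, with factors from 0.978 to 1.01, the group means were fitted in edgeR 4.0.16 (R 4.3.3) by its quasi-likelihood method. The 4 groups entered a single fit and so shared its dispersion. All p-values are two-sided and were adjusted by Benjamini-Hochberg over 15383 genes (threshold 0.05). Standard errors and 95% intervals were derived from the F test of each gene. Log2 levels used a prior count of 2. No replicate was treated as a duplicate: chi-square over degrees of freedom was 3.75 to 7.74 between the pools of a group. The detection floor of 3 counts covers counting error only.

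Members and lists were chosen with earlier results of these data known. Named from each list were up to 4 genes past the threshold with at least 1 CPM, by size of the wild-type tissue difference, and defining markers. Profile likeness was computed for members differing by at least 0.5, among genes with at least 5 CPM. Alternatives were DESeq2 1.42.0, limma-voom (limma 3.58.1), RLE, upper-quartile or library-size scaling, no filter or one at 50 mean counts, a replicate block, the compared groups alone, and each library left out. List counts without a library that stood apart were added after seeing the data. The fit was tested on simulated data. One marker gene of the lists is not reported here and was left out of its list. Positions and promoters came from RefSeq GRCm38.p6, which mm10 corresponds to.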

Additional observations from a re-analysis of the deposited data

How the results depend on the processing

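With 2 pools per group, leaving out 1 leaves a lone pool that is assumed to vary like the other groups. With 13 alternatives per comparison, and 16 for the difference between deletions, there were 680 member results, of which 3 lost their call (Elavl2 and Elavl3 in wild-type tissue, given above) and 8, all of Elavl2 among the knockouts, gained one. Elavl2 gained it under RLE, upper-quartile and library-size scaling, without the filter, with a mean of at least 50 counts, with DESeq2, with the replicate block and without replicate 1 of the forebrain knockout. No call changed sign. Values that were not called did change sign, in 2 results for wild-type tissue, 3 for tissue among the knockouts, 6 for hs654, 13 for hs267-853 and 13 for the difference between deletions. No alternative called any of the 10 genes in the last 3 of these comparisons. The low number of pools limits all knockout comparisons.

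The number of genes called in wild-type tissue (4548) ranged from 2816 without wild-type midbrain replicate 1 to 3510 when 1 library was left out, with 3019 without wild-type forebrain replicate 2. Among the knockouts (4523) it ranged from 2810 without midbrain knockout replicate 2 to 4267, with 2845 without replicate 1. For hs654 (0) it was 22 without a filter, 1 with only the compared groups, and 0 to 8 with 1 library left out, the 8 without wild-type midbrain replicate 2. For hs267-853 (2) it was 161 without a filter, 12 with DESeq2, 1 with limma-voom, 1 with only the compared groups, and 3 to 209 with 1 library left out, 209 without knockout replicate 2 and 9 without knockout replicate 1. For the difference between deletions (1) it was 111 without a filter, 4 with DESeq2 and 0 to 64 with 1 library left out, the 64 without forebrain knockout replicate 2. The Ptbp2 to Ptbp1 log2 difference ranged from -0.52 to -0.26 with 1 library left out. The cause was not tested.

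The replicate numbers did not pair the samples (correlation of same-numbered deviations -0.0255 to 0.0670). With the number as a replicate block, 4501, 4515, 0, 3 and 1 genes were called in these comparisons, in the same order.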
